A study of Mus musculus with 24 samples.

Results

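In wild-type mouse embryonic fibroblasts, 206 of the 12588 genes in the authors' deposited table of normalized counts stood lower after bacterial lipopolysaccharide (LPS) and higher again when the cells had also been given dexamethasone (Dex), a synthetic glucocorticoid. A gene was taken when, with 1 added to each wild-type group mean, the ratio of LPS to vehicle was at most 0.67, the ratio of Dex with LPS to LPS was at least 1.3 and the vehicle mean was at least 50 normalized counts. The genes were thus selected on the wild-type vehicle, LPS and Dex with LPS values. The fall and the return in wild type are therefore given as a description, with no test, and the readout that the choice did not use is the same 4 treatments in cells with a mutant glucocorticoid receptor (GR), together with Dex alone. In all, 543 genes met the LPS and vehicle limits, and the 206 made up 37.9% of them.

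GR is a steroid-activated transcription factor of the cytoplasm that enters the nucleus on binding its hormone. It raises genes such as Tsc22d3 through glucocorticoid response elements in DNA, and it is best known in inflamed tissue for holding down the genes that LPS switches on through Toll-like receptor 4, NF-kB and AP-1. LPS also lowers many genes, which receive less attention.

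The cells came from male C57BL/6 embryos of day 13.5 after removal of the head and the inner organs, and were wild type for GR or homozygous for the allele that the labels call GR Zn. The series asks whether GR must bind DNA directly, and the mutant carries a changed zinc finger of the DNA-binding domain. After 7 days of culture, each genotype received ethanol vehicle, 1 uM Dex for 16 h, LPS at 100 ng/ul for 6 h beside the vehicle, or both agents, with 3 libraries in each of the 8 groups (24 in all). The labels do not say whether the libraries of a group came from different embryos or cultures, so a p-value measures the spread between these libraries, which may be technical. Genotype and the embryos that carried it cannot be told apart.

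Levels are counts scaled to library size with TMM factors (CPM), quoted for replicates 1, 2 and 3. The libraries held 18.9 to 25.5 M counted reads in 21 cases and 43.9, 53.1 and 58.0 M in mutant LPS replicate 2, mutant vehicle replicate 1 and wild-type Dex with LPS replicate 3. Within a group, pairs of libraries differed by a chi-square per degree of freedom of 1.53 to 4.72 over genes, except for pairs with 1 of 5 libraries, at 8.09 to 56.3. These 5 were the 3 deep ones, wild-type Dex with LPS replicate 1 and mutant Dex with LPS replicate 2. All 12 fibroblast markers listed were present, with summed levels of 19334 to 30017 CPM. Macrophage markers summed to 97.6 to 129 CPM in wild type and 232 to 269 CPM in the mutant, and 1 of 18 (Aif1) stayed under 1 CPM in every library. Of the endothelial, skeletal muscle, nerve and epithelial markers, 5 of 11, 7 of 10, 4 of 10 and 6 of 8 stayed under 1 CPM throughout. No marker of these cell types, nor of cartilage and bone, was a member. In bulk RNA, fewer cells of a type and less RNA per cell cannot be told apart.

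RNA of some liver genes was unevenly spread over the libraries, and this touches part of the gene set. Alb, which encodes serum albumin, had 46.0, 48.5 and 99.7 CPM in wild-type vehicle, 19.4, 22.3 and 0.0544 CPM with LPS, and 0, 29.4 and 152 CPM with Dex and LPS. In the mutant it had 133, 15.4 and 17.7 CPM in vehicle and 22.9, 0.0843 and 0.0858 CPM with Dex. Replicates of 1 group thus ran from 0 to 152 CPM, and 7 of 10 liver markers (Alb, Apoa1, Apoa2, Ttr, Fgb, Fgg and Ahsg) were members. Of the other 3, Serpina1a reached 2.36 CPM, while Trf and Afp, the fetal counterpart of albumin, stayed at or under 0.494 and 0.236 CPM in every library. The source of this RNA was not tested. In all, 28 members followed Alb over the 24 libraries (Pearson r of at least 0.5 on log2(CPM + 0.1), Alb itself included), with the lowest r at 0.57 among them and the highest at 0.35 among the other 178. Without wild-type Dex with LPS replicate 3, 29 of the 206 no longer met the rule, and 20 of these were among the 28. Results below are given for all 206, and for the 178 where stated.

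**Figure D1:**
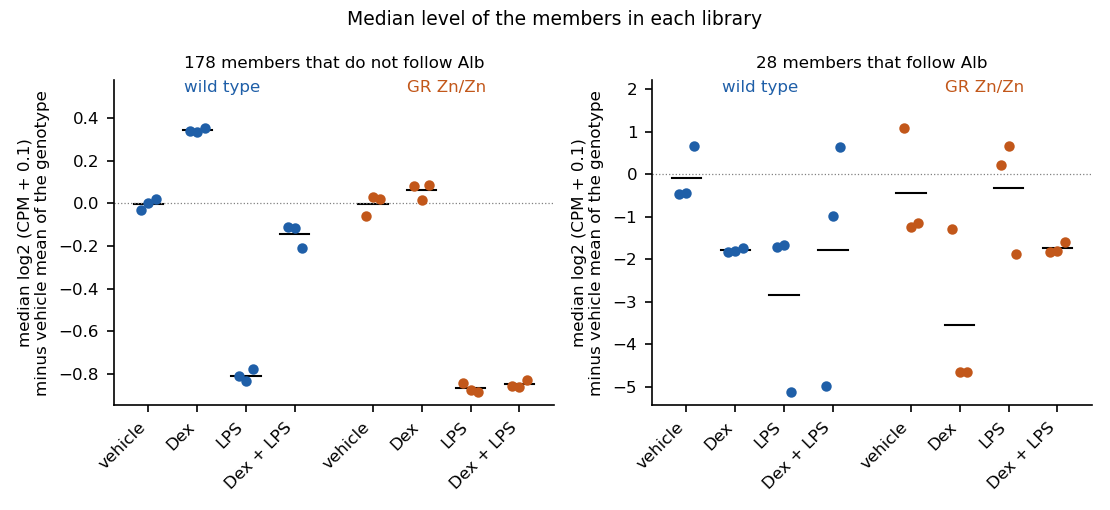
Median over members of log2(CPM + 0.1) minus the vehicle mean of the same genotype (y axis) in each of the 24 libraries, by group (x axis). Points are libraries and bars are means of 3, in blue for wild type and orange for GR Zn/Zn. Among the 178 members that do not follow Alb, wild-type Dex with LPS lay between -0.21 and -0.11 and the mutant between -0.86 and -0.83, while the 28 that follow Alb spread from -4.97 to 0.65 within wild-type Dex with LPS. The wild-type groups other than Dex alone were used by the rule.

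The plot of member medians by library shows the shape of the set. For the 178, the median was -0.84 to -0.78 in the 3 wild-type LPS libraries and -0.21 to -0.11 in the 3 with Dex as well. The mutant stood at -0.89 to -0.85 with LPS and at -0.86 to -0.83 with both agents. Thus the 2 mutant groups overlapped. Every wild-type library with both agents lay above every LPS library of either genotype, but the rule selected the wild-type values for such an order.

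On the deposited scale, LPS left the members a median 1.85-fold lower than vehicle in wild type, and Dex with LPS stood a median 1.62-fold above LPS. Over the 178 these medians were 1.77-fold and 1.57-fold. The share of the fall that was regained had a median of 71.4% (quartiles 47.2% and 103%). It was under 50% in 56 members and 50 to 100% in 96, and 54 members ended above vehicle, 52 of them among the 178. In 15, none of which followed Alb, Dex with LPS reached at least 1.5 times vehicle. The largest ratios belong mostly to liver genes: 7 of the 8 largest falls and 6 of the 8 largest rises were in genes that follow Alb.

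Just inside the LPS limit lay Apoe (0.6682) and Tmem44 (0.6682), and just outside it Jph2 (0.6705) and Napepld (0.6714). At the Dex limit, Slc22a17 (1.3001) and 2900026A02Rik (1.3024) were in, and C030014I23Rik (1.2959) and Fam217b (1.2949) were out. At the vehicle limit, Dlg2 (50.3) and Rnf144b (51.9) were in, and Cnr1 (48.9) was out. Of the 206, 118 met the rule with any 1 of the 9 wild-type libraries left out, and 111 of those were among the 178.

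All 206 passed the filter on low counts, and 204 are annotated as protein-coding. Their mean vehicle level in wild type ran from 2.04 to 146 CPM with a median of 7.56 CPM. Of the 206, 58 belong to a pathway or function list, 28 follow Alb and 120 are neither.

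LPS lowered most of the same genes in the mutant. Of 206 members, 160 fell and 0 rose (edgeR quasi-likelihood test, Benjamini-Hochberg adjusted p below 0.05 over 15221 genes). Over all genes tested, 17.7% fell and 19.0% rose in that comparison. The median change was -0.79 on the log2 scale over the 206 and -0.88 over the 178, against 0.00 over all genes. All 160 were among the 178, of which 18 were not called. No member that follows Alb was called, and their median was -0.08. In 160 members all 3 mutant LPS libraries lay below all 3 vehicle libraries, and in 0 above. For this measure the counts over all genes are not given here.

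**Figure D2:**
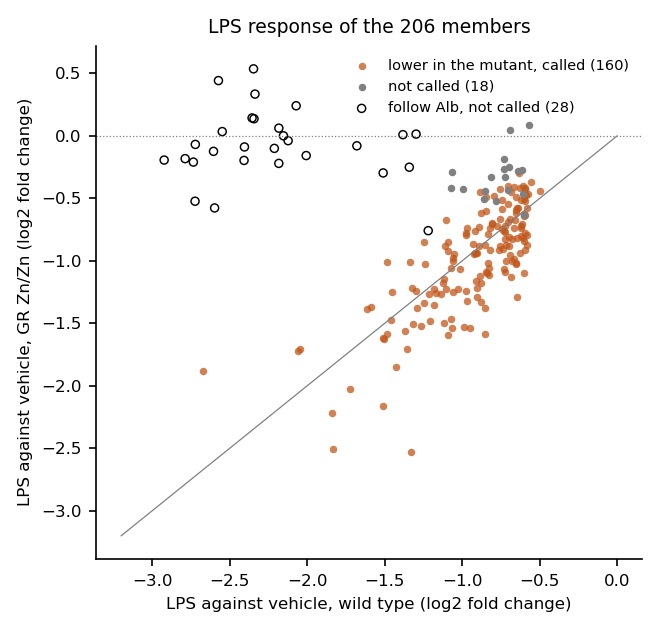
LPS against vehicle as log2 fold change from the edgeR fit in wild type (x axis, part of the rule) and in GR Zn/Zn (y axis), 1 point per member. Orange points (160) fell in the mutant at an adjusted p below 0.05, grey points (18) were not called, open circles (28) follow Alb, and the line marks equal change.

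Vsir, which encodes an immune checkpoint ligand, fell among the most in the mutant: 3.64, 4.04 and 4.09 CPM in vehicle against 0.608, 0.804 and 0.57 with LPS (log2 change -2.51 ± 0.18 SE, adjusted p = 9.2e-11). Bmf, a cell-death activator of the BCL2 family, fell by 2.22 ± 0.16 SE (adjusted p = 1.4e-10). In both genes the libraries with and without LPS did not overlap. Ackr4, a scavenging chemokine receptor, fell by 2.53 ± 0.41 SE from 0.494, 0.523 and 0.422 CPM, a low level in the mutant, where the 3 LPS libraries had 0.0405, 0.142 and 0 CPM.

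The return with Dex was not seen in the mutant. For Dex with LPS against LPS, 0 members rose and 0 fell in the mutant by the same edgeR test, where 0.00657% of all genes rose and 0.0% fell. The median change was -0.00 over the 206 and 0.04 over the 178. At an unadjusted edgeR p below 0.05 there were 19 members, 10 higher and 9 lower, and over the 178 there were 10 higher and 5 lower. Among all 15221 genes tested, 889 passed that limit, 481 higher and 408 lower. All 3 libraries with both agents lay above all 3 LPS libraries in 14 members and below them in 17, whereas in wild type, where this contrast chose the genes, they lay above in 159 and below in 0. The matching counts over all genes are not given here, so 14 and 17 cannot be set against a background. Of the 178, 174 stayed under the 1.3-fold rise of the rule, and the 4 at or above it (Dlg2, Gja3, Slc7a4 and Vsir, named after their values were seen) had adjusted p of 0.93, 0.93, 0.44 and 0.94. On simulated counts for this comparison the test recovered 79% of 1.5-fold and 99% of 2-fold changes. The simulated spread depended on the level of a gene alone and no library stood apart, so recovery in the real libraries may be lower.

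Dhcr7, the enzyme of the last step of cholesterol synthesis, came nearest to a call. It had 35.0, 35.5 and 35.5 CPM with LPS and 39.7, 45.1 and 42.0 CPM with both agents in the mutant, a log2 change of 0.26 ± 0.06 SE (edgeR adjusted p = 0.17). The groups did not overlap, and DESeq2 called it at an adjusted p of 0.011, the only member that DESeq2 called higher. In the authors' deposited table it was also the only member with an adjusted p below 0.05 in this comparison. That table had 27 genes higher and 1 lower of 12588 there. With the 5 libraries that stood apart left out, 2 other members were called higher, Mum1l1 and Nedd9.

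Dex alone, without LPS, raised a large part of the set in wild type. Of 206 members, 89 rose and 2 fell (edgeR, adjusted p below 0.05), against 7.92% and 5.24% of all genes tested. This comparison shares the wild-type vehicle libraries with the rule. The median change was 0.28 on the log2 scale over the 206 and 0.32 over the 178, which held all 91 calls. The 89 that rose had a median ratio of Dex with LPS to LPS of 1.81 and regained a median of 98.8% of the fall. The other 117, which include all 28 that follow Alb, had medians of 1.5 and 57.2%. Both measures are made of values that the rule used, so they are a description and were not tested.

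In the mutant, 0 members rose and 0 fell with Dex alone, as did 0.0% and 0.0% of all genes. At an unadjusted p below 0.05 there were 20 higher and 25 lower by edgeR, and 23 of the 25 follow Alb. Over all 15221 genes tested, 584 were higher and 525 lower at that limit. The 178 held 20 higher and 2 lower, with 118 positive and 60 negative changes, beside 7351 and 7862 over all genes. Small rises were thus more frequent than small falls among the 178, though none was called. DESeq2 called 0. The median change was 0.05 over the 206 (0.02 without mutant vehicle replicate 1) and 0.07 over the 178, and it was -2.96 over the 28 that follow Alb, whose Alb level is given above.

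**Figure D3:**
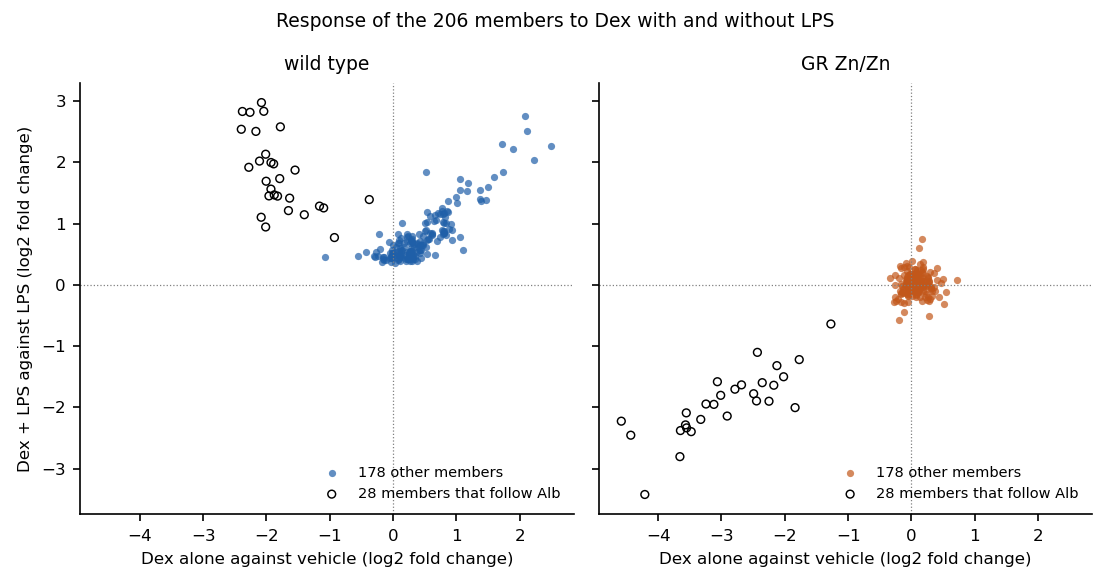
Log2 fold change with Dex alone against vehicle (x axis) and with Dex and LPS against LPS (y axis; in wild type part of the rule) for the 206 members, in wild type (left) and GR Zn/Zn (right). Filled points are the 178 members that do not follow Alb, which lie around 0 in the mutant, and open circles are the 28 that do.

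The scatter of Dex alone against Dex under LPS shows both responses. Its wild-type y values were limited by the rule, so the panels are not compared. In the mutant the 178 ranged from -0.58 to 0.75 under LPS and from -0.33 to 0.72 with Dex alone.

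With Dex in both genotypes, 91 members were lower and 20 higher in the mutant than in wild type (edgeR), against 15.2% and 11.3% of all genes, and neither group had a part in the rule. This comparison also holds any difference between the genotypes that was present in vehicle, which was not tested, so it is not a measure of the Dex response. The median difference was -0.49 over the 206 and -0.33 over the 178, where 90 were lower and 20 higher. The count of 20 was 34 without the 5 libraries that stood apart, and 34 when only these 2 groups were fitted. The difference between the genotypes' responses to Dex alone, a test added after the data had been seen, was called for 54 members, all with the smaller response in the mutant. All 54 were among the 89 that rose in wild type, and over all genes 4.4% were lower and 2.6% higher. The median difference was -0.33 over the 206 and -0.29 over the 178. This test shares the wild-type vehicle libraries with the rule.

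**Figure D4:**
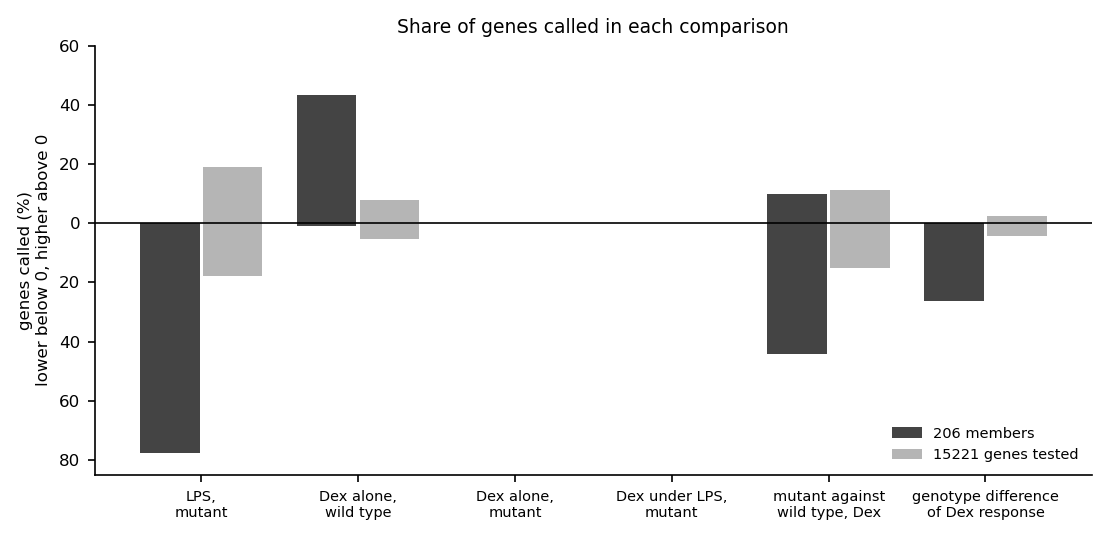
Percentage of the 206 members (dark) and of the 15221 genes tested (light) called at an edgeR adjusted p below 0.05 in each comparison (x axis), with genes called higher above 0 and lower below 0. The members reached 77.7% lower for LPS in the mutant and 43.2% higher for Dex alone in wild type, and no member was called for either Dex comparison in the mutant.

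The genes that met the LPS and vehicle limits in wild type but stayed under the 1.3-fold limit with Dex give a point of reference. There were 337, of which 334 were tested. Of these, 311 fell and 0 rose with LPS in the mutant. With Dex alone in wild type, 3 rose and 80 fell, with a median of -0.19, beside 89 and 2 with a median of 0.28 for the members. The genotype difference of the Dex response was higher in 51 and lower in 1 of the 334. No test of the difference between the sets was made, because the Dex limit itself separates them.

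**Figure D5:**
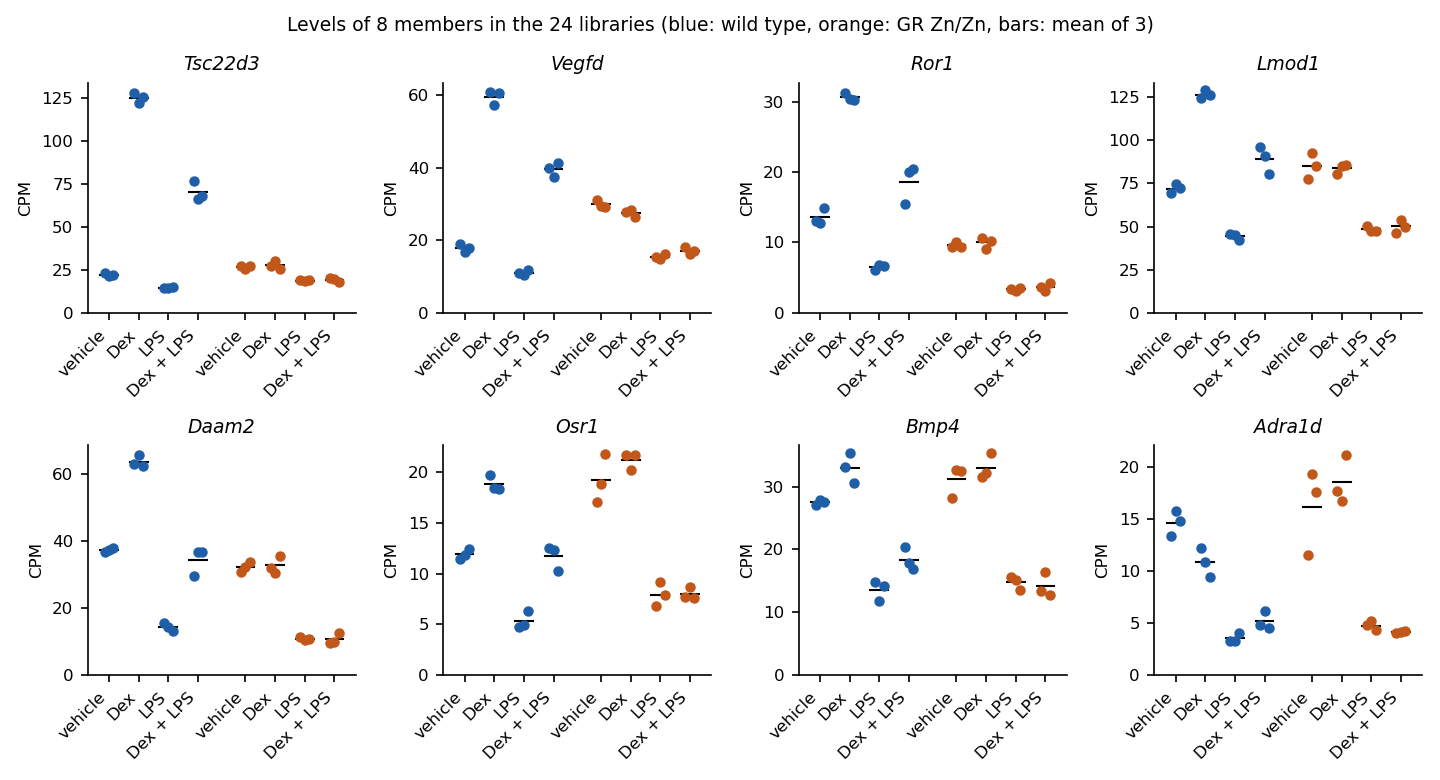
CPM (y axis, from 0) of 8 members in the 24 libraries by treatment (x axis), in blue for wild type and orange for GR Zn/Zn, with bars at the mean of 3 libraries. In Tsc22d3, Vegfd, Ror1, Lmod1 and Daam2 the wild-type Dex libraries are the highest of all 24, while the mutant libraries with and without Dex lie at similar heights.

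Of a list of 31 glucocorticoid-induced genes tested, 2 were members, Tsc22d3 and Cdo1. Of the list, 28 of the 31 rose and 1 fell with Dex alone in wild type, while 0 rose and 0 fell in either mutant Dex comparison. Tsc22d3 (chromosome X, 140539528 to 140600659, GRCm38) encodes GILZ, a leucine zipper protein that mediates part of the anti-inflammatory action of glucocorticoids. In wild type it had 23.1, 21.7 and 21.8 CPM in vehicle, 128, 122 and 126 with Dex, 14.4, 14.5 and 15.2 with LPS, and 76.6, 66.4 and 68.2 with both. The mutant had 27.4, 25.6 and 27.2 CPM in vehicle, 27.5, 30.2 and 25.6 with Dex, 19.0, 18.4 and 19.2 with LPS, and 20.5, 19.6 and 17.9 with both. Wild type overshot its vehicle level in every library with both agents, and the mutant libraries with both agents overlapped those with LPS. The rise with Dex alone in wild type was 2.50 ± 0.07 SE on the log2 scale (adjusted p = 3.1e-17), and the mutant response was smaller by 2.45 ± 0.09 SE (adjusted p = 5.0e-14). Cdo1, which oxidises cysteine, rose by 1.00 ± 0.05 SE in wild type (adjusted p = 3.9e-12) and had a change of -0.06 ± 0.05 SE in the mutant (adjusted p = 0.76).

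Among secreted growth factors and receptor tyrosine kinases, 3 of 62 tested genes were members, and all 3 fell with LPS in the mutant and rose with Dex alone in wild type. Over the list, 16 fell and 16 rose with LPS in the mutant, and 10 rose and 11 fell with Dex alone in wild type. Vegfd (chromosome X, 164373378 to 164402650), a growth factor for lymphatic vessels, had 18.9, 16.8 and 17.9 CPM in wild-type vehicle, 60.9, 57.4 and 60.6 with Dex, 10.9, 10.5 and 11.8 with LPS, and 39.9, 37.6 and 41.4 with both. In the mutant it had 31.1, 29.4 and 29.2 CPM in vehicle, 27.9, 28.5 and 26.5 with Dex, 15.4, 14.8 and 16.1 with LPS, and 18.2, 16.3 and 17.0 with both. Thus the mutant began from a higher level, and every mutant library with Dex lay below every wild-type library with Dex (log2 difference -1.11 ± 0.06 SE, adjusted p = 2.5e-12). The mutant libraries with both agents lay just above those with LPS, a change of 0.16 ± 0.07 SE that was not called (adjusted p = 0.82). Ror1, a receptor for WNT5A, rose with Dex in wild type from 13.1, 12.8 and 14.9 to 31.2, 30.4 and 30.2 CPM (1.17 ± 0.10 SE, adjusted p = 4.9e-09). In the mutant it had 9.30, 10.1 and 9.41 CPM in vehicle and 10.7, 9.07 and 10.3 with Dex, and these groups overlapped. Angpt2, a ligand of the endothelial receptor TIE2, rose by 0.79 ± 0.08 SE with Dex in wild type (adjusted p = 5.9e-08), with a smaller response in the mutant by 0.88 ± 0.11 SE (adjusted p = 5.1e-06).

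The WNT list gave the most members of any signalling pathway listed, 8 of 52 tested: Wnt4, the receptors Fzd1, Fzd2 and Fzd8, the R-spondin receptor Lgr5, the feedback inhibitors Nkd1 and Nkd2, and Daam2, which acts downstream of WNT receptors. In the mutant, LPS lowered 6 of the 8 (not Nkd1 or Nkd2), and 28 of the 52 fell while 7 rose. With Dex alone in wild type, 4 of the 8 rose (Daam2, Fzd1, Nkd1 and Wnt4), against 7 risen and 13 fallen of the 52. Daam2 had 36.8, 37.5 and 38.1 CPM in wild-type vehicle, 63.0, 65.9 and 62.6 with Dex, 15.7, 14.4 and 13.3 with LPS, and 29.7, 36.9 and 36.7 with both. Its mutant levels were 30.8, 32.2 and 33.7 CPM in vehicle, 32.0, 30.6 and 35.7 with Dex, 11.4, 10.6 and 10.8 with LPS, and 9.69, 9.86 and 12.7 with both. Daam2 fell with LPS in the mutant by 1.56 ± 0.09 SE (adjusted p = 5.3e-12), and the mutant libraries with both agents overlapped those with LPS.

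Lgr5, known from intestinal stem cells, had the largest LPS fall of the members that do not follow Alb, 6.09-fold in wild type, and regained 14.1% of it. Its wild-type levels were low, with 3.37, 2.58 and 2.27 CPM in vehicle, 0.366, 0.512 and 0.381 with LPS, and 0.80, 0.67 and 0.78 with both. The mutant had far more, 38.2, 32.5 and 36.5 CPM in vehicle, 10.3, 9.03 and 9.95 with LPS, and 10.5, 7.81 and 9.21 with both. With Dex in both genotypes, the mutant was higher by 3.95 ± 0.12 SE on the log2 scale (adjusted p = 1.5e-16). Fzd2 and Fzd1 had the highest wild-type vehicle levels per length of the 8, with 20.9 and 19.3 CPM per kilobase of exon. Fzd2 also differed between libraries of 1 group: with both agents it had 64.3 and 63.5 CPM in wild-type replicates 1 and 2 and 41.2 in replicate 3, which overlaps the 43.4, 42.0 and 39.8 CPM with LPS.

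The TGF-beta and BMP list had 6 members of 53 tested: the ligands Bmp4 and Gdf6, the signal transducer Smad9, the inhibitor Smad6, and the BMP target genes Id2 and Id4. All 6 fell with LPS in the mutant, where 18 of the 53 fell and 18 rose. With Dex alone in wild type, 3 rose (Id2, Id4 and Smad9), against 11 risen and 6 fallen of the 53. Bmp4 had 27.1, 27.9 and 27.5 CPM in wild-type vehicle, 14.8, 11.7 and 14.2 with LPS, and 20.3, 17.9 and 17.0 with both. In the mutant these were 28.3, 32.7 and 32.5 CPM, 15.6, 15.2 and 13.6 CPM, and 13.3, 16.5 and 12.8 CPM. So Bmp4 came back in part in wild type, by 33.1% of its fall, with no overlap with LPS, while the mutant groups with and without Dex overlapped. Dex alone changed it by 0.27 ± 0.10 SE in wild type (adjusted p = 0.072). Id2 rose by 0.32 ± 0.07 SE with Dex alone (adjusted p = 0.0029), and its response was smaller in the mutant by 0.41 ± 0.10 SE (adjusted p = 0.011). Smad6 fell by 0.49 ± 0.18 SE with LPS in the mutant (adjusted p = 0.032).

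Of 25 Notch and Hedgehog genes tested, the members were Lfng, which modifies Notch receptors, and Gli2, a transcription factor of Hedgehog signalling. Both fell with LPS in the mutant, where 14 of the 25 fell and 5 rose, and both rose with Dex alone in wild type, where 5 rose and 3 fell. Lfng had 7.83, 7.95 and 7.82 CPM in wild-type vehicle, 3.38, 3.58 and 3.91 with LPS and 8.27, 8.55 and 6.22 with both. In the mutant it stayed at 3.28, 3.20 and 2.51 CPM with both agents, beside 3.32, 2.96 and 3.11 with LPS. The Dex response of Lfng was smaller in the mutant by 0.69 ± 0.17 SE (adjusted p = 0.012), and that of Gli2 differed by -0.24 ± 0.14 SE (adjusted p = 0.48).

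Developmental transcription factors gave 7 members of 142 tested: Foxd1, Mef2c, Nfia, Nr2f2, Osr1, Pitx1 and Tbx5. All but Pitx1 fell with LPS in the mutant, where 77 of the 142 fell and 18 rose. Dex alone in wild type raised 3 of the 7 (Nfia, Nr2f2 and Osr1), with 8 risen and 20 fallen of the 142. Osr1, a factor of limb connective tissue and kidney, had 11.4, 11.8 and 12.4 CPM in wild-type vehicle, 19.7, 18.5 and 18.4 with Dex, 4.71, 4.91 and 6.36 with LPS, and 12.5, 12.4 and 10.3 with both. The mutant had 17.1, 18.8 and 21.8 CPM in vehicle, 21.6, 20.2 and 21.7 with Dex, 6.77, 9.15 and 7.88 with LPS, and 7.74, 8.70 and 7.59 with both. Wild type thus regained 95.7% of the fall, and in the mutant the LPS groups overlapped with a change of -0.00 ± 0.12 SE (adjusted p = 1.0). Tbx5, a factor of forelimb and heart, regained 25% in wild type and changed by 0.11 ± 0.10 SE with Dex alone (adjusted p = 0.59). Nr2f2, an orphan nuclear receptor of mesenchyme, regained 39.8%, fell by 1.21 ± 0.08 SE with LPS in the mutant (adjusted p = 9.7e-12) and rose by 0.27 ± 0.07 SE with Dex alone in wild type (adjusted p = 0.015).

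Other transcription factor lists held few members. The immediate early factor Fos was the 1 member of 37 Krüppel-like and immediate early factors, a list in which 20 rose and 4 fell with LPS in the mutant. Fos itself fell there by 0.58 ± 0.09 SE (adjusted p = 3.8e-05). It rose by 0.47 ± 0.09 SE with Dex alone in wild type (adjusted p = 0.00083), and the mutant value of 0.41 ± 0.09 SE was not called (adjusted p = 0.57), nor was the difference of -0.06 ± 0.13 SE (adjusted p = 0.90). Of 423 zinc finger and BTB factors, 2 were members, Zfp521 and Zfp931, and both fell with LPS in the mutant (list: 90 fell, 49 rose). Zfp521 rose by 0.28 ± 0.06 SE with Dex alone in wild type (adjusted p = 0.0028), and Zfp931 changed by -0.30 ± 0.16 SE (adjusted p = 0.27).

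G protein-coupled receptors gave 6 members of 97 tested: the adrenergic receptors Adra1b, Adra1d and Adra2a, the thromboxane receptor Tbxa2r, the adhesion receptor Adgrg2 and Ackr4. All 6 fell with LPS in the mutant (list: 31 fell, 23 rose), and 4 rose with Dex alone in wild type (Ackr4, Adgrg2, Adra1b and Adra2a; list: 7 rose, 18 fell). The 3 adrenergic receptors, which bind noradrenaline and adrenaline, differed among themselves. Adra1d had 13.4, 15.8 and 14.9 CPM in wild-type vehicle, 12.3, 10.9 and 9.43 with Dex, 3.34, 3.24 and 4.08 with LPS, and 4.85, 6.22 and 4.55 with both. It regained 16.5% of its fall, and its change with Dex alone was -0.43 ± 0.15 SE (adjusted p = 0.070). Adra2a had 4.7, 5.8 and 5.0 CPM in vehicle and 10.5, 9.62 and 9.69 with Dex, a rise of 0.94 ± 0.13 SE (adjusted p = 1.1e-05), and regained 155%. Adra1b rose by 1.10 ± 0.12 SE with Dex alone (adjusted p = 5.1e-07) and regained 81.7%. In the mutant the Dex response was smaller by 1.00 ± 0.19 SE for Adra2a (adjusted p = 0.0010) and by 0.81 ± 0.17 SE for Adra1b (adjusted p = 0.0034). Adgrg2 had 19.37, 18.25 and 20.01 CPM in wild-type vehicle and 42.6, 37.6 and 39.7 with Dex, against 15.2, 13.7 and 14.4, and 13.73, 13.03 and 13.04 in the mutant. For Adgrg2 the wild-type Dex libraries therefore stood apart from all others without LPS, and the genotype difference of the response was -1.19 ± 0.19 SE (adjusted p = 0.00017).

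Regulators of small G proteins and kinases had 4 members of 125: Rgs2, which shortens signalling by Gq-coupled receptors, Pik3ip1, an inhibitor of PI3 kinase, Rasl11b and Dusp27. All 4 fell with LPS in the mutant (list: 42 fell, 38 rose) and 3 rose with Dex alone in wild type (list: 20 rose, 20 fell). Rgs2 had 11.0, 9.78 and 10.3 CPM in wild-type vehicle, 22.6, 20.1 and 22.1 with Dex, 4.16, 3.24 and 3.48 with LPS, and 5.91, 6.22 and 6.48 with both. It thus stayed under vehicle with both agents, at 37.5% of the fall regained, although Dex alone raised it by 1.06 ± 0.10 SE (adjusted p = 4.2e-08). The mutant response of Rgs2 to Dex was smaller by 0.98 ± 0.15 SE (adjusted p = 8.9e-05). Dusp27 changed by -0.01 ± 0.16 SE with Dex alone in wild type (adjusted p = 0.99).

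Contractile and adhesion genes gave 4 members of 60: Lmod1, an actin-nucleating protein of smooth muscle, Mylk, the kinase of the myosin light chain, Tns2, a focal adhesion protein, and the actin-associated Pdlim2. All 4 fell with LPS in the mutant (list: 14 fell, 15 rose). Dex alone in wild type raised Lmod1, Mylk and Tns2 (list: 19 rose, 9 fell), and all 3 responses were smaller in the mutant. Lmod1 had 69.2, 74.4 and 72.3 CPM in wild-type vehicle, 124, 129 and 126 with Dex, 45.8, 44.9 and 42.2 with LPS, and 96.1, 90.9 and 80.2 with both. The mutant had 77.6, 92.5 and 84.8 CPM in vehicle, 80.4, 84.8 and 85.7 with Dex, 50.4, 47.3 and 47.4 with LPS, and 46.4, 54.1 and 49.7 with both. Every wild-type library with both agents exceeded every wild-type vehicle library, and both Dex comparisons in the mutant overlapped. The genotype difference of the Dex response was -0.83 ± 0.10 SE for Lmod1 (adjusted p = 2.7e-06), -0.79 ± 0.09 SE for Mylk (adjusted p = 1.3e-06) and -0.46 ± 0.12 SE for Tns2 (adjusted p = 0.020).

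The single matrix gene among the members, of 124 tested, was Aspn, which encodes the small leucine-rich proteoglycan asporin and had 43.2 CPM per kilobase in wild-type vehicle. It had 102, 101 and 102 CPM there, 162, 149 and 157 with Dex, 63.0, 60.9 and 67.3 with LPS, and 99.1, 107 and 127 with both. In the mutant the values were 194, 180 and 183, then 189, 188 and 169, then 114, 91.3 and 109, and with both 135, 103 and 117 CPM. Aspn fell by 0.83 ± 0.09 SE with LPS in the mutant (adjusted p = 1.9e-07; list: 25 fell, 26 rose), and its Dex response was smaller there by 0.64 ± 0.13 SE (adjusted p = 0.0023). Of 62 axon guidance genes the member was Sema3d, a secreted semaphorin, which fell by 0.82 ± 0.20 SE with LPS in the mutant (adjusted p = 0.0023; list: 27 fell, 9 rose) and changed by 0.40 ± 0.18 SE with Dex alone in wild type (adjusted p = 0.18).

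Solute carriers and ion channels had 7 members of 398: the calcium channel Cacna1h, the connexin Gja3, the potassium channel Kcnk1 and the carriers Slc2a4, Slc7a4, Slc22a17 and Slc25a29. LPS in the mutant lowered 5 of them (not Gja3 or Slc2a4; list: 97 fell, 94 rose), and Dex alone in wild type raised Kcnk1 and Slc2a4 (list: 49 rose, 33 fell). Kcnk1 had 7.98, 6.42 and 6.91 CPM in wild-type vehicle but 1.59, 2.09 and 2.11 in the mutant. With Dex in both genotypes it was lower in the mutant by 2.05 ± 0.16 SE (adjusted p = 6.0e-10).

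Lipid genes were represented by Cebpa, a driver of fat cell formation, the lipid droplet protein Plin4 and the lipid carrier Apoe, 3 of 24 tested. Cebpa and Plin4 fell with LPS in the mutant (list: 6 fell, 9 rose). Cebpa had 9.64, 10.2 and 10.0 CPM in wild-type vehicle, 15.0, 13.3 and 14.9 with Dex, 4.93, 4.27 and 4.67 with LPS, and 11.0, 8.73 and 8.73 with both. Its mutant values with LPS, 4.18, 3.83 and 4.04 CPM, all lay above those with both agents, 3.59, 3.57 and 3.10 CPM (-0.23 ± 0.12 SE, adjusted p = 0.87). Apoe, at the edge of the rule, changed by 0.09 ± 0.13 SE with LPS in the mutant (adjusted p = 0.65). Its 39.8 CPM in wild-type vehicle replicate 3, the wild-type vehicle library with the most Alb, compares with 30.2 and 33.0 in the others. Wild-type Dex with LPS replicate 3, with 152 CPM of Alb, had 30.3 CPM of Apoe, beside 32.7 and 32.0 in replicates 1 and 2. Over all libraries the r of Apoe with Alb was 0.30. The member of 39 genes of cholesterol and fatty acid synthesis was Dhcr7, which fell by 0.87 ± 0.06 SE with LPS in the mutant (adjusted p = 1.5e-11; list: 26 fell, 2 rose). It rose by 0.38 ± 0.06 SE with Dex alone in wild type (adjusted p = 2.7e-05; list: 21 rose, 1 fell). None of 110 cell cycle genes, 22 circadian clock genes or 35 NF-kB and inflammatory genes tested was a member. In the mutant, LPS raised 35 of those 35 inflammatory genes.

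Beyond the lists, the strongest responses to Dex were in low-level genes that overshot vehicle. Hspb7, a small heat shock protein of heart and muscle, had 2.47, 2.01 and 2.60 CPM in wild-type vehicle, 10.1, 10.2 and 9.89 with Dex, 1.23, 1.11 and 1.52 with LPS, and 10.7, 8.33 and 7.30 with both. The mutant had 1.94, 1.81 and 1.98 CPM in vehicle, 1.84, 1.73 and 1.72 with Dex, 1.3, 1.5 and 1.3 with LPS and 0.820, 1.05 and 1.23 with both. Wild type with both agents thus spanned the Dex-alone range, while every mutant library with both agents lay below every mutant LPS library, a change that was not called (-0.44 ± 0.19 SE, adjusted p = 0.85). Lims2, an adhesion protein that binds integrin-linked kinase, rose by 2.12 ± 0.16 SE with Dex alone in wild type (adjusted p = 2.2e-09). Adcy5, an adenylyl cyclase that makes cyclic AMP, rose by 2.23 ± 0.16 SE (adjusted p = 3.2e-10), and Depdc7 rose by 1.89 ± 0.16 SE (adjusted p = 1.3e-08). For these 4 genes the genotype difference of the response was between -2.21 and -1.88.

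The members with the highest vehicle levels per length were Cavin2, Aspn, Gadd45g, Alb, Tmem119 and Fzd2. Cavin2, a coat protein of caveolae, had 140, 148 and 150 CPM in wild-type vehicle, 94.3, 84.3 and 90.7 with LPS, and 135, 151 and 145 with both, so that the group with both agents reached the vehicle range. In the mutant, LPS gave 122, 103 and 124 CPM and both agents 110, 93.6 and 112. Tmem119, a membrane protein of bone-forming cells and microglia, had 57.0, 59.3 and 61.0 CPM in wild-type vehicle, 89.0, 83.7 and 81.6 with Dex, and 124, 111 and 89.8 with both. It was the reverse of Rgs2 in that both agents together exceeded Dex alone. Gadd45g, a stress-induced regulator of kinase signalling and DNA repair, varied within wild type with both agents, at 63.8, 48.9 and 29.8 CPM, and was not called for LPS in the mutant (-0.33 ± 0.21 SE, adjusted p = 0.25).

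Just 2 members fell with Dex alone in wild type. Myo1f, an unconventional myosin of blood cells, had 2.94, 2.53 and 2.19 CPM in vehicle, 1.13, 1.20 and 1.33 with Dex, 0.548, 0.597 and 0.707 with LPS, and 0.978, 0.582 and 0.921 with both. It fell by 1.07 ± 0.19 SE with Dex (adjusted p = 0.00022), and its groups with LPS and with both agents overlapped. The other was Kank4, with a fall of 0.56 ± 0.18 SE (adjusted p = 0.048). It was no longer called when any 1 of the 6 vehicle or Dex libraries of wild type was left out, and Myo1f was called in each case. With the 3 deep libraries left out 8 members were called lower, 5 of them genes that follow Alb, and with 5 libraries left out 14 were.

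The 28 members that follow Alb are genes of hepatocyte products and metabolism, among them apolipoproteins, fibrinogen chains, Ttr, Fabp1, Cyp2e1, Tat and Mup3. Ttr, a carrier of thyroid hormone and retinol, had 3.66, 3.27 and 8.23 CPM in wild-type vehicle, 1.01, 0.896 and 0 with LPS, and 0.0445, 2.73 and 10.3 with both. Fabp1, a fatty acid carrier, had 0, 0.761 and 8.06 CPM with both agents, so replicate 3 alone held the mean up. Their wild-type groups overlapped for Dex with LPS against LPS. Of the 28, 8 met the rule without replicate 3 (Ahsg, Apoa1, Ces1c, Kng1, Mup3, Serpina1b, Tat and Ttr, named after their values were seen). In the fit of all 24 libraries, 1 of them was called in 1 comparison: Kng1, a kininogen, was lower in the mutant with Dex in both genotypes. Their median changes were -0.08 for LPS in the mutant, -1.92 for Dex with LPS in the mutant and -1.93 for Dex alone in wild type. Serpina1b, Serpina3k and Mup3 belong to families of near-identical genes, so their counts are uncertain.

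Promoter sequence was searched because 89 members rose together with Dex in wild type. RefSeq windows on GRCm38.p6, from 250 bases before to 50 after a gene's start, matched 153 of the 206 members by symbol and 69 of the 89. The full palindrome bound by a GR dimer, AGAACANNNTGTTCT, read on both strands, was in 0 of the 153 members and in 0.0111% of 27025 genes. Its inner core ACANNNTGT was in 7.19% of members, in 5.80% of the 69 and in 7.90% of all genes. The hexamer AGAACA, which lies inside the palindrome, was in 18.3% of members and 21.3% of all genes. As general promoter letters, TATAAA was in 16.3% against 15.7% and CACGTG in 10.5% against 8.09%. These 5 motifs were all that were searched, and a match or its absence in so short a window says nothing about binding elsewhere. The core was present in 4 of the 69 members that rose, and the windows of Plce1, a phospholipase C, and of Smad9 are shown with the core match in capitals, 5′ to 3′, as the members of the 4 with the largest rise and with a place in a listed pathway:
Plce1 (chr19:38523947-38524246, plus strand): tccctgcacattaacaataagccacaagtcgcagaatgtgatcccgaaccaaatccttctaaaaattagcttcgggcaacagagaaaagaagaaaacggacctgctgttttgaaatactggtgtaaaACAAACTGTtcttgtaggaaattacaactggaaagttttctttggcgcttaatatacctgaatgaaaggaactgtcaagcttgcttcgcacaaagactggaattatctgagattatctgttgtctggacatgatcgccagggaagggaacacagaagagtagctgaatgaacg
Smad9 (chr3:54755332-54755631, plus strand): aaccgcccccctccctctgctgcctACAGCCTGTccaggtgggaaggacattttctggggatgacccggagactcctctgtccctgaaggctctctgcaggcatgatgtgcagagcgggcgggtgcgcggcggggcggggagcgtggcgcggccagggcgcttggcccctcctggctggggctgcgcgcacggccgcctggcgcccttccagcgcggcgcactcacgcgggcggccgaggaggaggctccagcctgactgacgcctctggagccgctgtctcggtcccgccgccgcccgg
Plce1 had 11.1, 9.21 and 10.3 CPM in wild-type vehicle, 28.7, 26.8 and 28.8 with Dex, 5.62, 5.25 and 5.38 with LPS, and 11.7, 13.8 and 16.4 with both. In the mutant it had 15.9, 14.5 and 17.1 CPM, then 16.4, 16.0 and 15.7 with Dex, 6.65, 6.65 and 8.14 with LPS, and 7.69, 5.40 and 7.93 with both. Smad9 had 9.07, 8.86 and 10.4 CPM in wild-type vehicle, 17.1, 14.5 and 16.7 with Dex, 4.34, 3.67 and 3.81 with LPS, and 8.98, 9.22 and 9.16 with both. Both genes came back to the vehicle range or above it in wild type, and in the mutant their libraries with both agents overlapped those with LPS. The response to Dex alone was smaller in the mutant by 1.45 ± 0.16 SE for Plce1 (adjusted p = 1.9e-06) and by 0.73 ± 0.14 SE for Smad9 (adjusted p = 0.0010).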

How the data were processed

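Build mm10, the aligner STAR (2.4.2a, also written 2.4.2), DESeq, DESeq2 and FastQC appear in the submitters' processing notes. The authors deposited STAR read counts per gene and library, in unstranded and stranded columns; the stranded count of the kit's reverse strand was used (the other strand held 2.70 to 2.91% of stranded reads). Per the file headers, the authors' tables also give normalized counts, used here as a signal per gene and library for the membership rule alone. These equal the unstranded counts over 1 factor per library in 100% of values with over 20 reads (relative tolerance 1e-06). The authors' deposited log2 fold changes and adjusted p-values for 4 comparisons were read for side-by-side counts. A further 72 sample columns of these tables were not used. Entries that name no gene stayed out: 2.92 to 5.58% of reads were unmapped, 3.74 to 5.79% multimapping, 3.10 to 4.72% outside features and 1.18 to 1.41% ambiguous.

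edgeR 4.0.16 in R 4.3.3 (TMM, filterByExpr by group, robust quasi-likelihood fit, 24 libraries, 1 coefficient per group) tested 15221 of 27088 genes with a read. Calls are at a Benjamini-Hochberg adjusted p below 0.05, and every adjusted p printed is edgeR's unless DESeq2 (1.42.0) is named. SE is the size of the log2 change over the square root of F. Gene models are GENCODE vM21 on GRCm38, which held 15173 of the tested genes. No pair of replicates agreed within sampling noise (lowest chi-square per degree of freedom 1.53). The main fit treated the samples as unpaired, because the labels do not say what a replicate number marks. Alternatives were DESeq2, other scaling and filters, unstranded counts, a replicate block, other sets of libraries and leaving out each library in turn. On simulated counts 78 to 81% of 1.5-fold changes were recovered in 5 comparisons, and 58% for the genotype difference. These counts had no spread particular to a gene and no library that stood apart, so the rates may be too high for the real libraries.

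The members and lists were chosen with earlier results of these data known. Name patterns of the lists were corrected after a first match, the limit on r with Alb was first 0.8 (25 members) and then 0.5 (28), and the genotype difference of the Dex response was added after the data had been seen. The genes named are members with the 8 largest rises and falls of the rule, the 6 highest vehicle levels per length, the 3 of each list with the highest vehicle level per length, the extremes of the mutant LPS change (4 each way), the 5 largest called changes each way with Dex alone and the 2 on each side of each limit (1 of these is not reported here); others are named as members of a list, or were chosen after their values were seen (Plce1, Mum1l1, Nedd9 and Kng1 among them).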

Additional observations from a re-analysis of the deposited data

Results flagged for a closer look

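The response to Dex alone differed between the genotypes in 54 members, each with the lower response in the mutant (test of the difference in the edgeR fit, adjusted p below 0.05). Among the named genes the differences, on the log2 scale and as mutant minus wild type, ran from -2.45 for Tsc22d3 to -0.32 for Dhcr7. Hspb7 gave -2.21, Depdc7 -2.17, Lims2 -2.01, Adcy5 -1.88 and Vegfd -1.86. For Adgrg2, Ror1 and Cdo1 the differences were -1.19, -1.11 and -1.06. Rgs2 gave -0.98, Rnf144b -0.93, Angpt2 -0.88, Lmod1 -0.83, Mylk -0.79 and Daam2 -0.74. Lfng gave -0.69, Aspn -0.64, Cavin2 -0.54, Osr1 -0.52, Tns2 -0.46 and Id2 -0.41.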

How the results depend on the processing

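Among counts of members called, 194 alternative values stayed within 1.5 times the main count and 22 did not; no call on a named gene reversed its direction. Of the median changes over members, 68 alternative values moved by less than 1 SD over libraries and 22 by more. Those 22 kept their sign: 0.01 to 0.02 for Dex alone in the mutant (main 0.05), 0.30 in wild type (0.28), -0.47 to -0.40 for mutant against wild type with Dex (-0.49) and -0.43 to -0.27 for the genotype difference (-0.33). For Dex with LPS in the mutant, members called higher were 1 with DESeq2 and 2 without the 5 libraries that stand apart, against 0. For Dex alone in wild type, members called lower were 2, and 1 with DESeq2, with no filter on low counts, with the replicate block and among members that also meet the rule without wild-type Dex with LPS replicate 3. They were 14 without the 5 libraries, 8 without the 3 deep libraries (an alternative chosen after seeing the data) and 17 when only the compared groups were fitted. Members higher in the mutant with Dex were 20, and 34 both without the 5 libraries and with only the compared groups. Members with a higher Dex response in the mutant were 0, 1 with the replicate block, and 3 both without the 5 libraries and with only the compared groups. The cause was not tested. Same-numbered libraries had correlations of -0.34 to 0.35. With 3 libraries a group this does not settle whether the numbers pair the samples.

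Leaving out 1 library at a time gave 152 to 158 members lowered by LPS in the mutant and 0 to 0 called for either mutant Dex comparison. It gave 74 to 83 raised and 1 to 1 lowered by Dex in wild type, 80 to 85 lower and 18 to 20 higher in the mutant with Dex, and 49 to 54 lower and 0 to 2 higher for the genotype difference. The number of members was 195 to 225 when a wild-type library was left out, 224 with wild-type Dex with LPS replicate 2 alone, 210 without the added 1 and 213 on TMM-scaled counts, 198 of them shared. A level under 3 counts is 0.0518 to 0.159 CPM by library, which limits what Ackr4 and the genes that follow Alb can show.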

Other observations

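Some members outside the lists, chosen after their values were seen, are receptors and transcription factors. Vdr, the vitamin D receptor, had 14.6, 14.3 and 14.1 CPM in wild-type vehicle, 20.02, 21.1 and 21.1 with Dex, 9.50, 9.35 and 9.46 with LPS, and 19.7, 22.9 and 21.6 with both. The mutant had 34.8, 35.2 and 33.6 CPM in vehicle, 33.8, 34.5 and 35.6 with Dex, 17.3, 15.6 and 15.6 with LPS and 17.3, 14.6 and 17.5 with both. So LPS lowered Vdr in the mutant by 1.10 ± 0.07 SE (edgeR adjusted p = 5.2e-12), and Dex added to LPS changed it there by 0.03 ± 0.07 SE (adjusted p = 0.98). Rarb, a retinoic acid receptor, fell by 1.33 ± 0.15 SE with LPS in the mutant (adjusted p = 1.5e-07) and changed by 0.28 ± 0.13 SE with Dex alone in wild type (adjusted p = 0.18). Maf, a leucine zipper factor, rose by 0.45 ± 0.10 SE with Dex alone in wild type (adjusted p = 0.0043). Avpr1a, a vasopressin receptor, was higher in the mutant by 0.99 ± 0.09 SE with Dex in both genotypes (adjusted p = 2.0e-08). It was also higher in vehicle, with 13.2, 14.8 and 13.4 CPM in the mutant and 7.22, 6.11 and 6.91 CPM in wild type. The genotype difference of its Dex response was -0.04 ± 0.13 SE (edgeR adjusted p = 0.96).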
